A study of Danio rerio with 8 samples.

Results

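The messenger RNA levels of 9 zebrafish genes of the unfolded protein and integrated stress responses were followed in sorted larval eosinophils that lacked Cebp1 or Cebpβ. The genes were *xbp1*, *atf3*, *atf4a*, *atf4b*, *atf6*, *ddit3*, *trib3*, *sesn2* and *chac1*, taken by name from a list of stress-response regulators and feedback genes, and all 9 of 9 were found among the 30838 genes listed in both expression tables. The study asked which genes Cebp1 and Cebpβ control in the eosinophil lineage. Cebp1 is the zebrafish orthologue of mammalian C/EBPε, and both proteins are CEBP-family transcription factors. There were 2 libraries in each of 4 groups: *cebp1*-/- (allele smu1), its control *cebp1*+/+, *cebpb*-/- (allele szy7) and its control *cebpb*+/+. All larvae were of the AB strain, were 7 dpf (days post fertilization) and carried Tg(eslec:eGFP), in which a promoter fragment of the lectin gene *eslec* drives green fluorescent protein. Each library came from about 500 eGFP+ cells sorted from digested whole larvae, and each replicate from a different pool of individuals.

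Cells meet a load of unfolded protein in the endoplasmic reticulum (ER) through 3 sensors. IRE1 splices *xbp1* mRNA so that it encodes an active transcription factor. ATF6 leaves the ER and is then activated by cleavage, and PERK phosphorylates the translation factor eIF2. Phosphorylated eIF2, which other kinases also produce when amino acids or heme run short, slows general translation but favours translation of ATF4. ATF4 then raises *ATF3*, *DDIT3* (which encodes CHOP) and a set of feedback genes. In mice, Xbp1 is needed for eosinophils to develop, and eosinophils load their granules through the ER. Of the genes followed, *atf4a* and *atf4b* are the zebrafish copies of ATF4. *Trib3* encodes a pseudokinase that restrains ATF4 and CHOP in mammals, *sesn2* a sestrin that restrains mTORC1 in mammals, and *chac1* an enzyme that degrades glutathione. Levels here are per gene: they do not separate spliced from unspliced *xbp1* and do not show translation of ATF4 or cleavage of ATF6.

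Levels are TPM, transcript abundances divided by gene length and set to a common sum in each library, so they can be compared between genes of a library. The tables of the *cebp1* and *cebpb* experiments were normalized separately, and tests were made within a table. Two-sided tests used limma on log2(scaled TPM + 1), where scaling set the median ratio between libraries to 1, and a gene was called at a Benjamini-Hochberg adjusted p under 0.05 over all genes tested. The choice of scaling weighs heavily in the *cebp1* table. The median listed gene stood at 2.19 and 2.697 TPM in *cebp1*-/-, against 6.95 and 5.43 TPM in *cebp1*+/+, and the median log2 fold change of all genes tested was -0.90 on TPM as deposited and -0.06 after scaling. In the *cebpb* table these medians were 0.46 and -0.03. The changes of the 9 genes are therefore given on scaled TPM and on TPM as deposited, and a change of another gene given alone is on scaled TPM. The sorted cells carried *eslec* at 1.17% to 3.61% of all TPM, with markers of other blood cells at lower levels. Cells other than blood also left a signal. In *cebpb*-/- the 7 pigment cell markers summed to 28901 and 18069 TPM, more than *eslec* in both libraries. In replicate 1 that sum also exceeded the 8 eosinophil markers (19075 TPM). In the other groups the pigment cell markers summed to less than *eslec*. The macrophage markers summed to between 23.6 and 461 TPM and the neutrophil markers to between 76.7 and 258 TPM, while *mpeg1.1* (macrophage) was listed at 0 and *lyz* (neutrophil) at 1.47 TPM or less in all 8 libraries. The transcript of *cebp1* was also listed at 0 in all 8 libraries, so it could not check the genotype labels, and a 0 in these tables does not show that a transcript is absent. *Cebpb* was at 2928 and 1480 TPM in *cebpb*-/-, against 6360 and 5716 TPM in *cebpb*+/+. Depth is unknown, because TPM keep no record of read number. With 2 libraries a group, p-values rest on the spread between these pools, and fewer expressing cells cannot be told apart from less RNA per cell.

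*Xbp1* was the most abundant of the 9 genes in all 8 libraries. It held ranks 158 and 156 among the 30838 listed genes in *cebp1*-/-, against 245 and 224 in *cebp1*+/+. In the *cebpb* table it held ranks 41 and 36 in *cebpb*-/-, against 51 and 39 in *cebpb*+/+. The summed level of the 9 genes was 945 and 920 TPM in *cebp1*-/-, against 584 and 619 TPM in *cebp1*+/+. In the *cebpb* table it was 7776 and 7828 TPM in *cebpb*-/-, against 5553 and 6091 TPM in *cebpb*+/+. The order of the genes below *xbp1* differed between the tables. In *cebp1*+/+, *atf4a* followed *xbp1* at 175 and 140 TPM, then came *chac1* at 44.9 and 67.4 TPM and *atf6* at 39.4 and 41.8 TPM, with *trib3* at 35.1 and 62.7 TPM overlapping both. *Ddit3*, *atf3* and *sesn2* overlapped between 8.85 and 17.5 TPM, and *atf4b* was lowest at 4.21 and 6.42 TPM. In *cebpb*+/+, *chac1* came after *xbp1* at 708 and 836 TPM. *Atf4a* and *ddit3* overlapped there between 331 and 405 TPM, followed without overlap by *trib3*, *atf3*, *atf4b*, *atf6* and *sesn2*. *Ddit3*, the gene of the proapoptotic factor CHOP, was thus among the lower genes in *cebp1*+/+ (17.5 and 13.3 TPM) and among the higher ones in *cebpb*+/+ (400 and 382 TPM). No test was made between the tables, whose wild-type libraries differed in makeup. Genes above 0 were 87.8% and 88.1% of those listed in *cebp1*+/+, against 46.6% and 46.3% in *cebpb*+/+. One mitochondrial ribosomal RNA, *mt-rnr2*, took 20.5% and 22.4% of TPM in *cebp1*+/+, against 3.79% and 3.25% in *cebpb*+/+. The part of this makeup in the order of the genes was not tested.

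**Figure D1:**
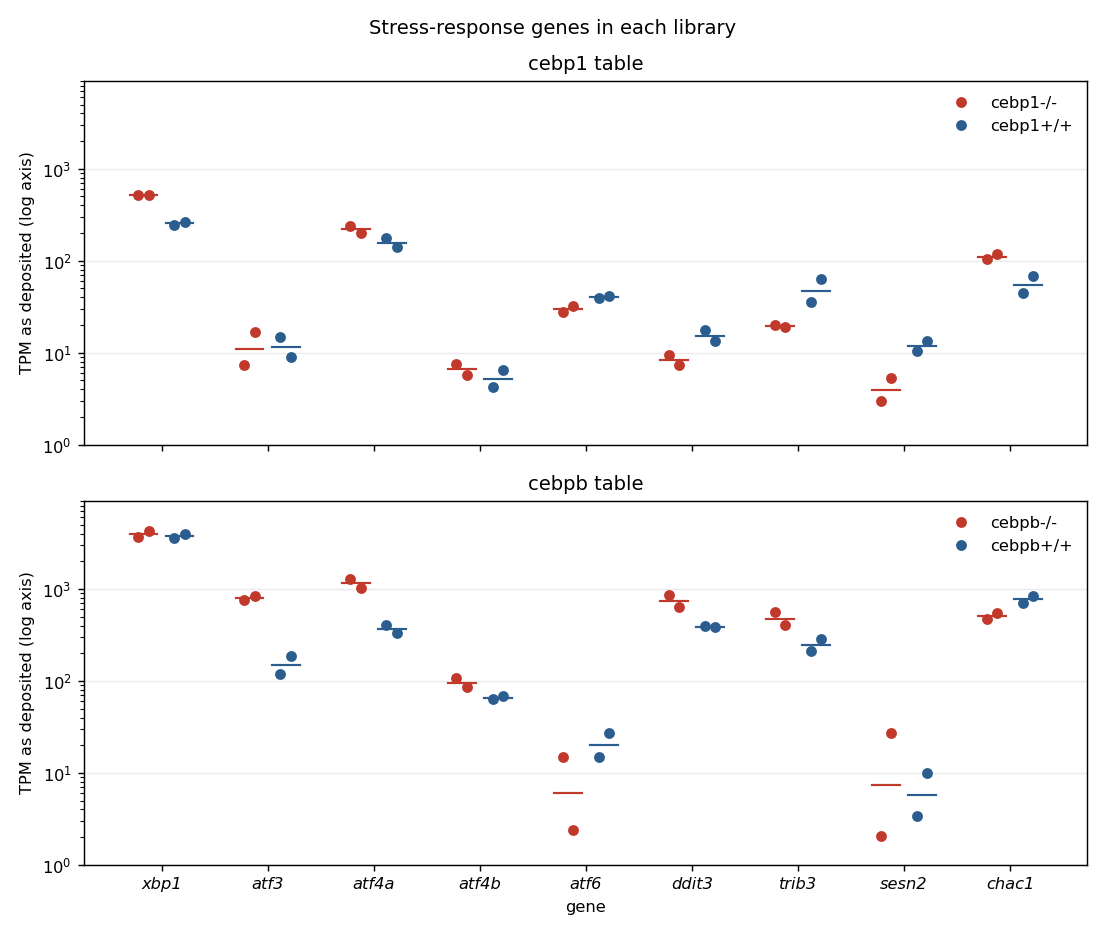
TPM as deposited (log axis) of the 9 stress-response genes in each of 8 libraries; points are libraries, horizontal bars the geometric mean of the 2 libraries of a genotype, mutant left of wild type. Without overlap, *xbp1*, *chac1* and *atf4a* lie higher and *atf6*, *ddit3*, *trib3* and *sesn2* lower in *cebp1*-/-. In *cebpb*-/-, *atf3*, *atf4a*, *atf4b*, *ddit3* and *trib3* lie higher and *atf6* and *chac1* lower. The upper and lower tables were normalized separately.

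In *cebp1*-/-, *xbp1* rose on scaled TPM and was the one gene of the 9 that was called. *Chac1* and *atf4a* stood higher without overlap but missed the threshold, and the other 6 genes were not called either. *Xbp1* was at 525 and 518 TPM in *cebp1*-/-, against 243 and 266 TPM in *cebp1*+/+. Both mutant libraries lay close together and far above the wild-type libraries. The log2 fold change was 2.102 (SE 0.28, limma adjusted p = 0.0257) on scaled TPM and 1.03 (SE 0.21, adjusted p = 0.0739) on TPM as deposited.

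*Chac1* was at 104 and 118 TPM in *cebp1*-/-, against 44.9 and 67.4 TPM in *cebp1*+/+. The genotypes did not overlap, and the wild-type libraries were further apart than the mutant ones. Its log2 fold change of 2.05 (SE 0.38) fell just short of the call (limma adjusted p = 0.0510), and on TPM as deposited it was 0.996 (SE 0.31, adjusted p = 0.0992). *Atf4a*, which encodes the factor that induces *CHAC1* in mammals, was at 241 and 198 TPM in *cebp1*-/-, against 175 and 140 TPM in *cebp1*+/+. The lowest mutant library was above the highest wild-type library by less than the gap between replicates. On the log2 scale it was higher by 1.54 (SE 0.30, adjusted p = 0.0574) on scaled TPM and by 0.48 (SE 0.26, adjusted p = 0.220) as deposited.

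The other ATF4 branch genes were not called. *Trib3* was at 20.04 and 18.9 TPM in *cebp1*-/-, against 35.1 and 62.7 TPM in *cebp1*+/+. The mutant libraries agreed and lay below both wild-type libraries, which were far apart. The change on the log2 scale was -0.20 (SE 0.45, adjusted p = 0.878) on scaled TPM and -1.23 (SE 0.39, adjusted p = 0.1001) as deposited. *Ddit3* was at 9.50 and 7.42 TPM in *cebp1*-/-, against 17.5 and 13.3 TPM in *cebp1*+/+. *Sesn2* was at 2.998 and 5.25 TPM in *cebp1*-/-, against 10.4 and 13.4 TPM in *cebp1*+/+. Both were below wild type without overlap as deposited, by log2 fold changes of -0.79 (SE 0.42) and -1.36 (SE 0.48). On scaled TPM these became 0.19 (SE 0.42) and -0.43 (SE 0.47), with the sign of *ddit3* turned, and neither gene was called on either scale. *Sesn2* and *ddit3* stood within a few fold of the median listed gene of their own library, and that median itself was lower in *cebp1*-/-.

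*Atf3*, a stress-induced factor of the ATF/CREB family, was at 7.26 and 16.7 TPM in *cebp1*-/-, against 14.8 and 8.85 TPM in *cebp1*+/+, so the genotypes overlapped. On the log2 scale it differed by 0.93 (SE 0.48) after scaling and by -0.05 (SE 0.52) as deposited. *Atf4b* was at 7.58 and 5.70 TPM in *cebp1*-/-, against 4.21 and 6.42 TPM in *cebp1*+/+, and overlapped too, with differences of 1.19 (SE 0.49) and 0.29 (SE 0.49). *Atf6* was at 27.9 and 32.2 TPM in *cebp1*-/-, against 39.4 and 41.8 TPM in *cebp1*+/+. Its replicates were close, and its log2 fold change was 0.61 (SE 0.35) on scaled TPM and -0.43 (SE 0.33) as deposited. None of these 3 genes was called (limma adjusted p = 0.428, 0.324 and 0.477 on scaled TPM).

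Read against all genes, 1 of the 9 was called higher and 0 lower, where 323 of 25203 genes (1.28%) were called higher and 32 (0.127%) lower. Among the 917 genes averaging over 50 scaled TPM, to which *xbp1* belongs, 211 (23.0%) were called higher. At an unadjusted p under 0.05, 4 of the 9 (*xbp1*, *chac1*, *atf4a* and *atf4b*, all higher on scaled TPM) stood beside 14.6% of all genes (2444 higher and 1237 lower). As deposited, 2 of the 9 were higher (*xbp1* and *chac1*) and 2 lower (*trib3* and *sesn2*) at that threshold, beside 31.9% of all genes (448 higher and 7689 lower). On TPM as deposited none of the 9 and 45 genes in all (0.176%, 16 higher and 29 lower) were called. The libraries did not overlap between genotypes for 7 of the 9, 3 higher and 4 lower in *cebp1*-/-, and for 66.2% of all genes (1260 higher and 15639 lower). Among the 2892 genes averaging 20 scaled TPM or more, ranking by log2 fold change, which depends little on the scaling, placed *xbp1* above 93.3% and *chac1* above 92.4% of genes. *Atf4a* stood above 78.3%, *atf6* above 34.5% and *trib3* above 10.2%. The call of *xbp1* was lost when any 1 of the 4 libraries was left out (adjusted p = 0.132 to 0.524), as were all 355 calls of that comparison, while its log2 fold change stayed between 1.899 and 2.34.

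Markers of other cells moved with the *cebp1* genotypes. The 12 keratinocyte markers summed to 207 and 337 TPM in *cebp1*-/-, against 876 and 2763 TPM in *cebp1*+/+. Of their 9 tested genes 0 were higher and 7 lower at an unadjusted p under 0.05, and *epcam* was listed at 0 in all 4 libraries. On scaled TPM 1 keratinocyte marker was called lower, and as deposited 1 was. The 8 eosinophil markers summed to 25202 and 28112 TPM in *cebp1*-/-, against 14083 and 16587 TPM in *cebp1*+/+, and 5 of 8 were called higher on scaled TPM and 0 as deposited. The 7 pigment cell markers summed to 2016 and 2998 TPM in *cebp1*-/-, against 4346 and 6123 TPM in *cebp1*+/+, with 0 of 7 at an unadjusted p under 0.05 on scaled TPM and all 7 lower as deposited. The mitochondrial ribosomal RNA *mt-rnr2* took 26.8% and 22.8% of TPM in *cebp1*-/-, against 20.5% and 22.4% in *cebp1*+/+. Neural markers summed to 317 and 220 TPM in *cebp1*-/-, against 835 and 855 TPM in *cebp1*+/+, with 0 of 8 tested higher and 1 lower at an unadjusted p under 0.05, and 0 higher and 4 lower as deposited. As deposited 1 neural marker was called lower. Muscle markers stood apart in 1 library, at 979 and 37.1 TPM in *cebp1*-/-, against 85.1 and 178 TPM in *cebp1*+/+, with 1 of 9 tested higher at that threshold and 0 as deposited. Liver markers summed to 87.9 and 111 TPM in *cebp1*-/-, against 484 and 209.8 TPM in *cebp1*+/+, with 1 of 9 tested called lower on scaled TPM. Neutrophil markers summed to 76.7 and 78.4 TPM in *cebp1*-/-, against 133 and 116 TPM in *cebp1*+/+. Of their 7 tested genes 1 was called lower and 0 higher, on scaled TPM and as deposited. For comparison, 14.6% of all genes had an unadjusted p under 0.05 on scaled TPM (2444 higher and 1237 lower). As deposited 31.9% did (448 higher and 7689 lower). On scaled TPM 1.28% of all genes were called higher and 0.127% lower, and 23.0% of genes over 50 scaled TPM were called higher. As deposited 0.176% of all genes were called in either direction. The part of these markers in the values of *xbp1*, *chac1* and the other genes was not tested.

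Loss of Cebpβ went with another set of values: *atf3* and *atf4a* stood higher, *chac1* stood lower, and *xbp1* was lower on scaled TPM alone. On TPM as deposited *atf4b*, *ddit3* and *trib3* also stood higher without overlap, and *atf6* lower. None of the 9 genes was called, nor was any of the 11478 genes tested on scaled TPM (0% higher and 0% lower) or of the 11660 tested as deposited (0%). At an unadjusted p under 0.05, limma on scaled TPM gave 704 genes higher and 924 lower, 14.2% of those tested, and 4 of the 9: *atf3* and *atf4a* higher, *xbp1* and *chac1* lower. As deposited, 1238 genes were higher and 513 lower at that threshold (15.0%), and of the 9 *atf3*, *atf4a*, *ddit3* and *trib3* were higher and *chac1* lower.

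*Atf3* had the smallest p of the 9 and no overlap. It was at 758 and 831 TPM in *cebpb*-/-, against 118 and 186 TPM in *cebpb*+/+. Every mutant library was several times above every wild-type library. The gap was 1.86 (SE 0.31, limma adjusted p = 0.150) on the log2 scale after scaling and 2.41 (SE 0.30, adjusted p = 0.124) as deposited. *Atf4a* was at 1297 and 1037 TPM in *cebpb*-/-, against 405 and 331 TPM in *cebpb*+/+, again with no overlap. Its log2 fold change was 1.11 (SE 0.24, adjusted p = 0.182) on scaled TPM and 1.66 (SE 0.22, adjusted p = 0.142) as deposited.

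*Chac1* went the other way. It was at 477 and 543 TPM in *cebpb*-/-, against 708 and 836 TPM in *cebpb*+/+. Both mutant libraries were below both wild-type libraries. On the log2 scale the change was -1.15 (SE 0.24, limma adjusted p = 0.173) on scaled TPM and -0.60 (SE 0.21, adjusted p = 0.288) as deposited. *Xbp1* was at 3704 and 4252 TPM in *cebpb*-/-, against 3626 and 3963 TPM in *cebpb*+/+, and the genotypes overlapped. The log2 fold change of *xbp1* was -0.49 (SE 0.18) on scaled TPM and 0.07 (SE 0.13) as deposited, so its direction depended on the scaling.

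*Ddit3* was at 859 and 645 TPM in *cebpb*-/-, against 400 and 382 TPM in *cebpb*+/+. *Trib3*, a target of ATF4 and CHOP in mammals, was at 558 and 406 TPM in *cebpb*-/-, against 214 and 287 TPM in *cebpb*+/+. Neither gene overlapped between genotypes. Their log2 fold changes were close to each other, 0.38 (SE 0.23) and 0.39 (SE 0.27) on scaled TPM, and 0.93 (SE 0.23) and 0.94 (SE 0.29) as deposited. *Atf4b* was at 107 and 85.4 TPM in *cebpb*-/-, against 62.9 and 67.8 TPM in *cebpb*+/+, with a log2 fold change of 0.00 (SE 0.36) on scaled TPM and 0.55 (SE 0.37) as deposited. It did not share the higher level of its paralog *atf4a* on scaled TPM.

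*Atf6* and *sesn2* were low and scattered. *Atf6* was at 14.8 and 2.42 TPM in *cebpb*-/-, against 15.0 and 27.2 TPM in *cebpb*+/+. One mutant library was almost level with a wild-type library, and the SE of its log2 fold change of -2.01 was 0.91 (-1.53, SE 0.97, as deposited). *Sesn2* was at 2.05 and 26.8 TPM in *cebpb*-/-, against 3.38 and 9.85 TPM in *cebpb*+/+, and the mutant libraries spanned the wild-type ones. Its log2 fold change of -0.02 had an SE of 1.28 (0.42, SE 1.298, as deposited), so no genotype difference was detectable for it in either direction.

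As deposited, the libraries did not overlap for 7 of the 9 genes, 5 higher and 2 lower in *cebpb*-/-, beside 45.9% of all genes (3639 higher and 1714 lower). Among the 3357 genes averaging 20 scaled TPM or more, *atf3* stood above 93.8% by log2 fold change, *atf4a* above 85.7%, *trib3* above 70.4%, *ddit3* above 70.0%, *atf4b* above 57.4%, *xbp1* above 39.7% and *chac1* above 18.4%. The sign of *atf3*, *atf4a*, *ddit3*, *trib3*, *atf6* and *chac1* was the same under all 13 alternative settings.

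**Figure D2:**
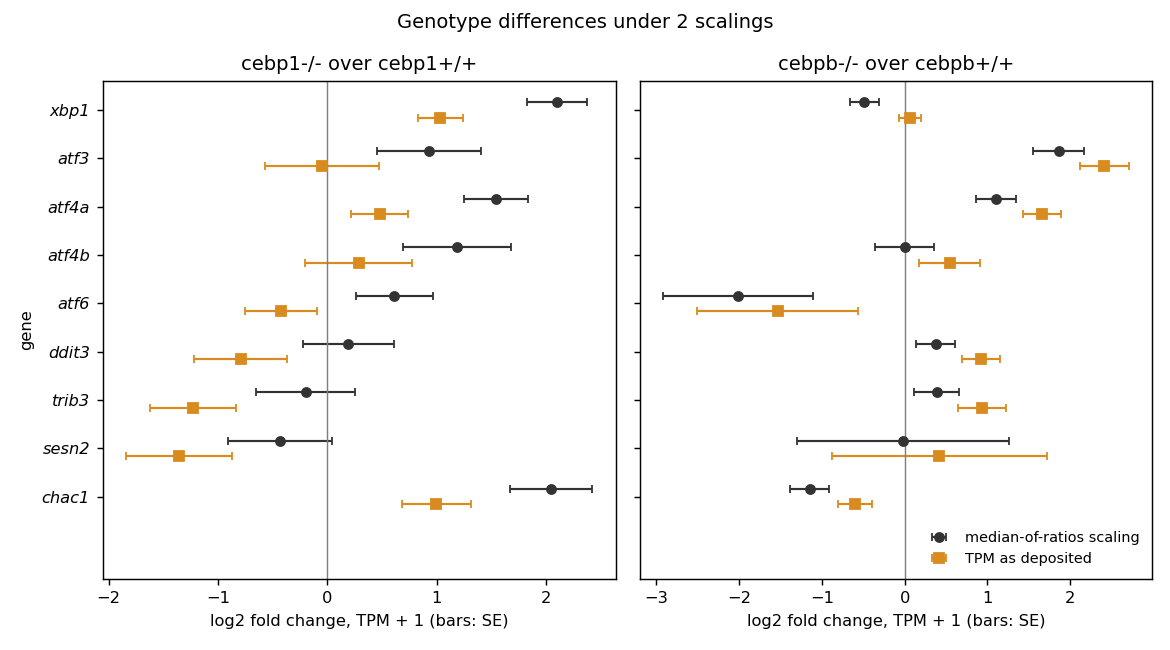
Log2 fold change of each gene, mutant over its wild type, on log2(TPM + 1); black circles are scaled TPM, orange squares TPM as deposited, bars the SE (2 libraries a group). The scaling moves every gene of a panel by a similar amount, and *xbp1* and *chac1* stay at the upper end for *cebp1*, and *atf3* and *atf4a* for *cebpb*.

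In *cebpb*-/- the higher *atf3* and *atf4a* levels came with higher markers of pigment cells and skin, among others. The 7 pigment cell markers summed to 28901 and 18069 TPM in *cebpb*-/-, against 5126 and 6014 TPM in *cebpb*+/+. All 6 tested were higher at an unadjusted p under 0.05, among them *tyrp1b*, *pmela* and *dct* of melanin synthesis, and *pmelb* was listed at 0 in all 4 libraries. The 12 keratinocyte markers summed to 2101 and 3027 TPM in *cebpb*-/-, against 519 and 1010 TPM in *cebpb*+/+, with 4 of 8 tested higher at an unadjusted p under 0.05 and *epcam* and *krt92* listed at 0. The 8 eosinophil markers summed to 19075 and 25938 TPM in *cebpb*-/-, against 47387 and 42554 TPM in *cebpb*+/+. Of these markers 1 was higher and 5 lower at an unadjusted p under 0.05. The 8 erythrocyte markers listed summed to 1595 TPM in *cebpb*+/+ replicate 2 and to 36 TPM or less in the other libraries of that table. Neural markers summed to 58.6 and 206 TPM in *cebpb*-/-, against 10.9 and 9.52 TPM in *cebpb*+/+, with 1 of 5 tested higher at that threshold. Liver markers stood apart in *cebpb*-/- replicate 1, at 227 TPM against 3.45 TPM in replicate 2 and 6.37 and 11.2 TPM in *cebpb*+/+, and so did muscle markers, at 128 TPM against 31.5 TPM in replicate 2 and 7.50 and 30.5 TPM in *cebpb*+/+. For comparison, 14.2% of all genes had an unadjusted p under 0.05 on scaled TPM (704 higher and 924 lower). The part of these cells in the values of the 9 genes was not tested.

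The effects of the mutations were then compared in a fit of all 8 libraries. A shift of a gene between the tables cancels there if it is the same in both genotypes. A shift between the genotypes of 1 table, such as that of low genes in the *cebp1* table, stays in the difference. The effects differed for *xbp1* and *chac1*. The log2 fold change of *xbp1* by *cebp1* loss exceeded that by *cebpb* loss by 2.59 (SE 0.27, limma adjusted p = 0.00997), and by 0.97 (SE 0.15, adjusted p = 0.0375) on TPM as deposited. For *chac1* the difference was 3.20 (SE 0.47, adjusted p = 0.0253), and 1.59 (SE 0.37, adjusted p = 0.0684) as deposited. *Chac1* was higher in both *cebp1*-/- libraries than in both *cebp1*+/+ libraries, and lower in both *cebpb*-/- libraries than in both *cebpb*+/+ libraries. So 2 of the 9 genes were called on scaled TPM, where 581 of 22888 genes (2.54%) were, 465 with a positive and 116 with a negative difference. Among the 1160 genes averaging over 50 scaled TPM, to which *xbp1* and *chac1* belong, 287 (24.7%) were called with a positive difference. The median difference of those abundant genes was 1.57, and that of genes over 50 TPM as deposited was -0.04. As deposited 1 of the 9 was called, where 2.50% of genes were, 116 with a positive and 473 with a negative difference.

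The remaining 7 genes were not called. *Atf6* had a difference of 2.63 with a wide SE of 0.98 (limma adjusted p = 0.254). On TPM as deposited, *atf3* (-2.46, SE 0.70), *trib3* (-2.17, SE 0.54), *ddit3* (-1.72, SE 0.46) and *atf4a* (-1.18, SE 0.32) had negative differences, with adjusted p between 0.0741 and 0.0930. On scaled TPM these were -0.93, -0.58, -0.18 and 0.43, with the sign of *atf4a* turned. The calls of *xbp1* and *chac1* were both lost when either *cebp1*-/- library or either *cebpb*+/+ library was left out (adjusted p = 0.0515 to 0.102).

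The ratio of a pair of genes within 1 library is the same under any scaling between libraries, and 12 pairs were computed for the mutants and their wild types. These pairs were picked after the levels had been seen, so the ratios are descriptions with no test. A shift between abundant and low genes stays in such ratios. In the *cebp1* table as deposited, the median log2 fold change was -0.90 for all genes tested and 0.04 for genes over 50 TPM. A ratio of an abundant to a low gene can therefore be higher in *cebp1*-/- for many pairs, and no other pairs were computed for comparison. *Chac1* to *trib3*, both ATF4 targets in mammals, gave the clearest contrast. The ratio was 5.198 and 6.24 in *cebp1*-/-, against 1.28 and 1.07 in *cebp1*+/+. It was 0.855 and 1.34 in *cebpb*-/-, against 3.31 and 2.91 in *cebpb*+/+. The libraries of a genotype were close, and the mutants moved in opposite directions from their wild types. *Chac1* to *ddit3* did likewise, at 10.97 and 15.9 in *cebp1*-/- against 2.57 and 5.06 in *cebp1*+/+, and at 0.555 and 0.842 in *cebpb*-/- against 1.77 and 2.19 in *cebpb*+/+.

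*Ddit3* to *atf4a* was lower in both mutants. It was 0.0394 and 0.0375 in *cebp1*-/-, against 0.0996 and 0.0955 in *cebp1*+/+. It was 0.662 and 0.621 in *cebpb*-/-, against 0.988 and 1.15 in *cebpb*+/+. *Trib3* to *atf4a* was also lower in both, at 0.0832 and 0.0952 in *cebp1*-/- against 0.200 and 0.449 in *cebp1*+/+, and at 0.430 and 0.391 in *cebpb*-/- against 0.529 and 0.866 in *cebpb*+/+. Relative to the RNA of the upstream factor, the RNA of these targets was thus lower in each mutant pair of libraries than in its wild-type pair.

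Of the other pairs, some overlapped between genotypes and some parted. *Chac1* to *xbp1* was 0.199 and 0.227 in *cebp1*-/-, inside the range of 0.185 and 0.254 in *cebp1*+/+, but 0.129 and 0.128 in *cebpb*-/-, against 0.195 and 0.211 in *cebpb*+/+. *Trib3* to *ddit3* was 0.649 and 0.629 in *cebpb*-/-, inside the range of 0.535 and 0.751 in *cebpb*+/+. That ratio was 2.11 and 2.54 in *cebp1*-/-, inside the range of 2.01 and 4.71 in *cebp1*+/+. *Xbp1* to *atf6*, the mRNAs of the factors of the IRE1 and ATF6 arms, was 18.8 and 16.1 in *cebp1*-/-, against 6.15 and 6.36 in *cebp1*+/+. It was also higher without overlap in *cebpb*-/-, at 250.1 and 1760 against 242 and 146 in *cebpb*+/+, where *atf6* was low and scattered. *Atf4a* to *atf4b* was 12.1 and 12.1 in *cebpb*-/-, against 6.44 and 4.89 in *cebpb*+/+, so the *atf4* copies parted there. *Atf3* to *ddit3* was 0.882 and 1.29 in *cebpb*-/-, against 0.295 and 0.486 in *cebpb*+/+.

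**Figure D3:**
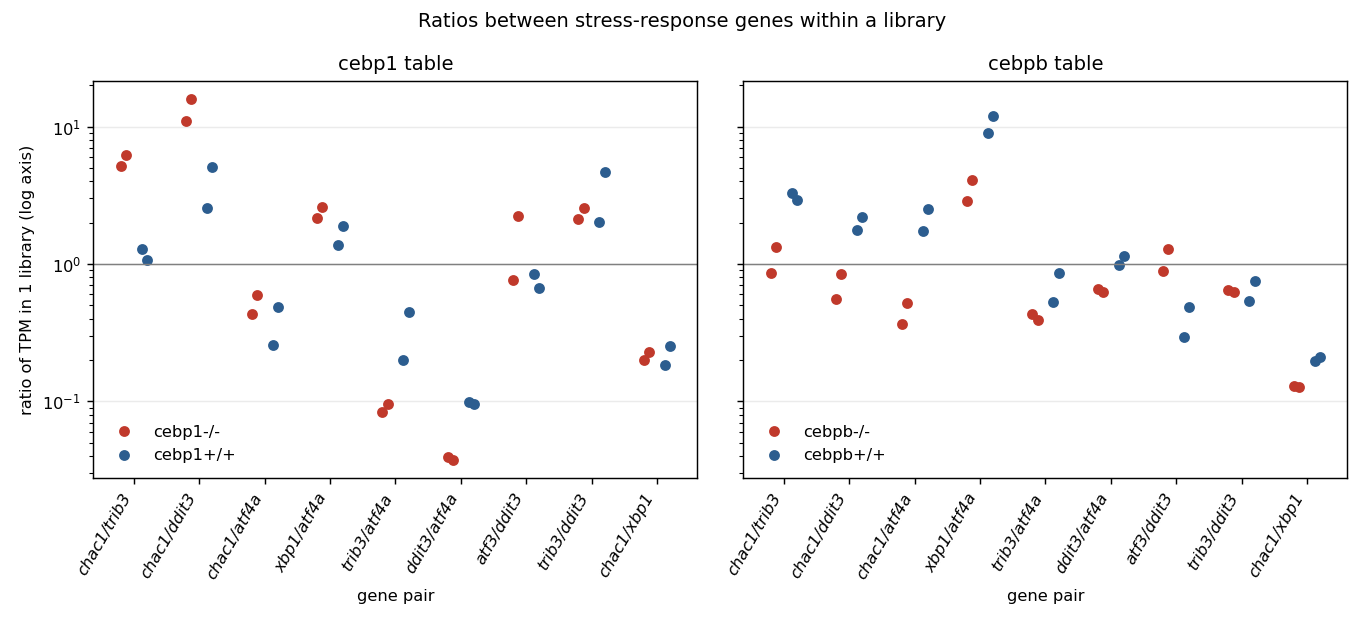
Ratio of the TPM of 2 genes within the same library (log axis) for 9 of the pairs, mutant left of wild type; each point is 1 library. *Chac1* to *trib3* lies at 5.198 and 6.24 in *cebp1*-/- against 1.28 and 1.07 in *cebp1*+/+, and at 0.855 and 1.34 in *cebpb*-/- against 3.31 and 2.91 in *cebpb*+/+.

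Genes around the 9 were read from 8 pathway lists, some of which share a gene. In *cebp1*-/-, of the list of the IRE1-XBP1 branch and ER-associated degradation, 5 of 32 tested genes rose and 0 fell, beside 1.28% of all genes and 23.0% of genes over 50 scaled TPM called higher. They were the translocon genes *sec61a1* and *sec61b*, the translocon-associated genes *ssr2* and *ssr4*, and *ern1*, which encodes IRE1 itself. *Ern1* was at 29.7 and 29.3 TPM in *cebp1*-/-, against 12.1 and 12.1 TPM in *cebp1*+/+, higher by 2.23 on the log2 scale (SE 0.38, limma adjusted p = 0.0427) and by 1.22 as deposited. *Sec61a1*, a channel for proteins entering the ER, was at 1006 and 823 TPM in *cebp1*-/-, against 352 and 325 TPM in *cebp1*+/+. Its log2 fold change was 2.49 (SE 0.27, adjusted p = 0.0250), and 1.43 as deposited.

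In the list of ATF6 processing and ER chaperones, 5 of 22 rose and 0 fell, about the share of genes over 50 scaled TPM (23.0%). They were the disulfide isomerase genes *pdia2*, *pdia3* and *agr2*, the ER chaperone gene *hsp90b1*, and *creb3l1*, which encodes a factor released by cleavage like ATF6. *Pdia2* and *agr2* are also on the list of eosinophil markers. *Pdia3* was at 716 and 617 TPM in *cebp1*-/-, against 324 and 243 TPM in *cebp1*+/+, with a log2 fold change of 2.31 (SE 0.27, limma adjusted p = 0.0254), and 1.24 as deposited. The medians of these lists were 1.08 and 1.37 on the log2 scale after scaling, and 0.04 and 0.35 as deposited. The median was 1.103 for all genes over 50 scaled TPM, and 0.04 for those over 50 TPM as deposited. The median of the IRE1-XBP1 list was thus near that of abundant genes. The lists also hold genes below that level, such as *ern1*, so these medians are not matched for abundance.

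Targets of ATF4 and CHOP gave 3 genes that rose and 0 that fell of 43 tested. Beside them, 1.28% of all genes and 23.0% of genes over 50 scaled TPM were called higher. *Pycr1b*, of proline synthesis, was at 26.6 and 23.1 TPM in *cebp1*-/-, against 5.40 and 3.29 TPM in *cebp1*+/+, with a log2 fold change of 3.23 (SE 0.42, limma adjusted p = 0.0257), and 2.298 as deposited. The other two were the tRNA synthetase genes *nars* and *gars*, with log2 fold changes of 2.27 and 1.84 (1.22 and 0.78 as deposited). The median of the list was 0.80 after scaling and -0.20 as deposited. Of the eIF2 kinases, phosphatase and eIF2 machinery, 1 of 19 rose, the eIF2 subunit gene *eif2s3* (log2 fold change 1.95, SE 0.26, adjusted p = 0.0264, and 0.88 as deposited). *Eif2s1b* and *gcn1*, next by p, were not called (adjusted p = 0.0679 and 0.107), and the median of that list was 0.88 after scaling and -0.16 as deposited. As deposited, no gene of any of the 8 lists was called. At an unadjusted p under 0.05 the deposited values gave 5 higher and 3 lower in the IRE1-XBP1 list, 5 and 1 in the ATF6 list, 3 and 8 among ATF4 and CHOP targets and 1 and 4 in the eIF2 list. Of all genes 31.9% passed that threshold as deposited.

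None of 21 other ATF, CREB and bZIP genes and none of 20 paralogs of the feedback genes and p53 targets was called by limma, with 2 of each list higher at an unadjusted p under 0.05 and 0 lower. Nearest were *bach1b* (log2 fold change 1.69, limma adjusted p = 0.109), *mafgb* and *atf5a* in the bZIP list, and *sesn1* (1.84, adjusted p = 0.0691), *ddit4* and *tp53inp1* among the paralogs. *Sesn1*, a paralog of *sesn2*, was at 144 and 88.4 TPM in *cebp1*-/-, against 67.2 and 63.0 TPM in *cebp1*+/+. In the cytosolic heat-shock list 2 of 20 rose on scaled TPM, *hspa8* (2.28, and 1.21 as deposited) and *hsp90ab1* (1.53, and 0.46 as deposited), followed by *hsf2*, while the median was -0.24 (-1.16 as deposited, with 2 genes higher and 9 lower at an unadjusted p under 0.05). In the immediate-early list 1 of 21 rose on scaled TPM, *egr1*, at 7.35 and 6.47 TPM in *cebp1*-/- against 1.08 and 0.840 TPM in *cebp1*+/+, followed by *klf2b* and *fosab* (adjusted p = 0.0521 and 0.0532). As deposited *egr1* was not called (adjusted p = 0.0832), and 2 genes of that list were higher and 6 lower at an unadjusted p under 0.05. The medians of the bZIP, paralog and immediate-early lists were 0.28, 0.32 and 0.58 after scaling and -0.48, -0.61 and -0.43 as deposited. Of all genes, 1.28% were called higher on scaled TPM, and 23.0% of those over 50 scaled TPM were. An unadjusted p under 0.05 was reached by 14.6% of all genes on scaled TPM and by 31.9% as deposited.

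In *cebpb*-/- no gene of any list was called, and list medians lay between -0.40 (eIF2 list) and 0.32 (immediate-early list) after scaling, and between 0.15 (eIF2 list) and 0.87 (immediate-early list) as deposited. The immediate-early list, whose genes answer to growth factors and acute stress, had the most genes at an unadjusted p under 0.05, with 10 higher and 3 lower of 22, beside 14.2% of all genes, and 12 higher and 1 lower as deposited. *Fosab* was at 6116 and 5832 TPM in *cebpb*-/-, against 2050 and 1684 TPM in *cebpb*+/+, with a log2 fold change of 1.13 (SE 0.19, limma adjusted p = 0.150). *Dusp1* (1.13, SE 0.19) and *fosb* (1.61, SE 0.32) were next. The list summed to 23805 and 22470 TPM in *cebpb*-/-, against 11639 and 11129 TPM in *cebpb*+/+. *Atf3* is itself an immediate-early gene in mammals, and whether it was part of the same shift was not tested.

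Targets of ATF4 and CHOP were mixed in *cebpb*-/-, with 1 higher and 6 lower of 34 at an unadjusted p under 0.05, against 14.2% of all genes, and 3 higher and 4 lower as deposited. *Ero1a*, an ER oxidase gene induced by CHOP in mammals, was at 25.2 and 61.1 TPM in *cebpb*-/-, against 0.251 and 0 TPM in *cebpb*+/+. *Bbc3*, a proapoptotic gene, was at 0.944 and 0 TPM in *cebpb*-/-, against 28.1 and 19.9 TPM in *cebpb*+/+. *Slc7a3a*, a cationic amino acid transporter gene, was at 47.8 and 19.6 TPM in *cebpb*-/-, against 145 and 104 TPM in *cebpb*+/+. These genes therefore lay on both sides while *atf4a* stood higher.

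In the IRE1-XBP1 list 4 genes were higher and 7 lower of 30 at an unadjusted p under 0.05 on scaled TPM, but 7 were higher and 1 lower as deposited, so the balance turned with the scaling. That threshold was passed by 14.2% of all genes on scaled TPM and by 15.0% as deposited. *Ssr1* had the smallest p, at 62.0 and 30.8 TPM in *cebpb*-/-, against 315 and 242 TPM in *cebpb*+/+ (log2 fold change -3.17, SE 0.43, limma adjusted p = 0.150), and *herpud1* (-0.99) and *ssr2* (-1.01) followed. In the ATF6 list *hyou1* (1.14) and *sdf2l1* (1.11) were higher and *pdia2* (-1.04) was lower, with 2 genes in each direction of 21, but 7 higher and 0 lower as deposited. Of the 16 eIF2 genes tested 0 were higher and 1 lower, *eif2s1b* (-1.01), and *impact* and *eif2b3* were each listed at 0 in 1 *cebpb*-/- library.

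Among p53 targets and paralogs, 4 of 20 were higher and 0 lower at an unadjusted p under 0.05, and 6 higher and 0 lower as deposited. The shares of all genes were 14.2% on scaled TPM and 15.0% as deposited. *Cdkn1a*, the cell cycle inhibitor p21, was at 197 and 310 TPM in *cebpb*-/-, against 8.98 and 11.1 TPM in *cebpb*+/+, with a log2 fold change of 3.96 (SE 0.48, limma adjusted p = 0.150). *Phlda3* was at 29.0 and 43.4 TPM in *cebpb*-/- and listed at 0 in both *cebpb*+/+ libraries, and *gadd45aa* (1.06) was the next. Of the 19 other bZIP genes tested 3 were higher and 1 lower at that threshold, and *nfe2l2a* (1.03) and *mafk* (2.16) and *crema* (-0.76) came first. In the heat-shock list 0 genes were higher and 4 lower of 20 on scaled TPM, but 4 higher and 1 lower as deposited, with *hsp70l* (-0.996), *hsp90ab1* (-0.77) and *bag3* (-1.29) first.

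**Figure D4:**
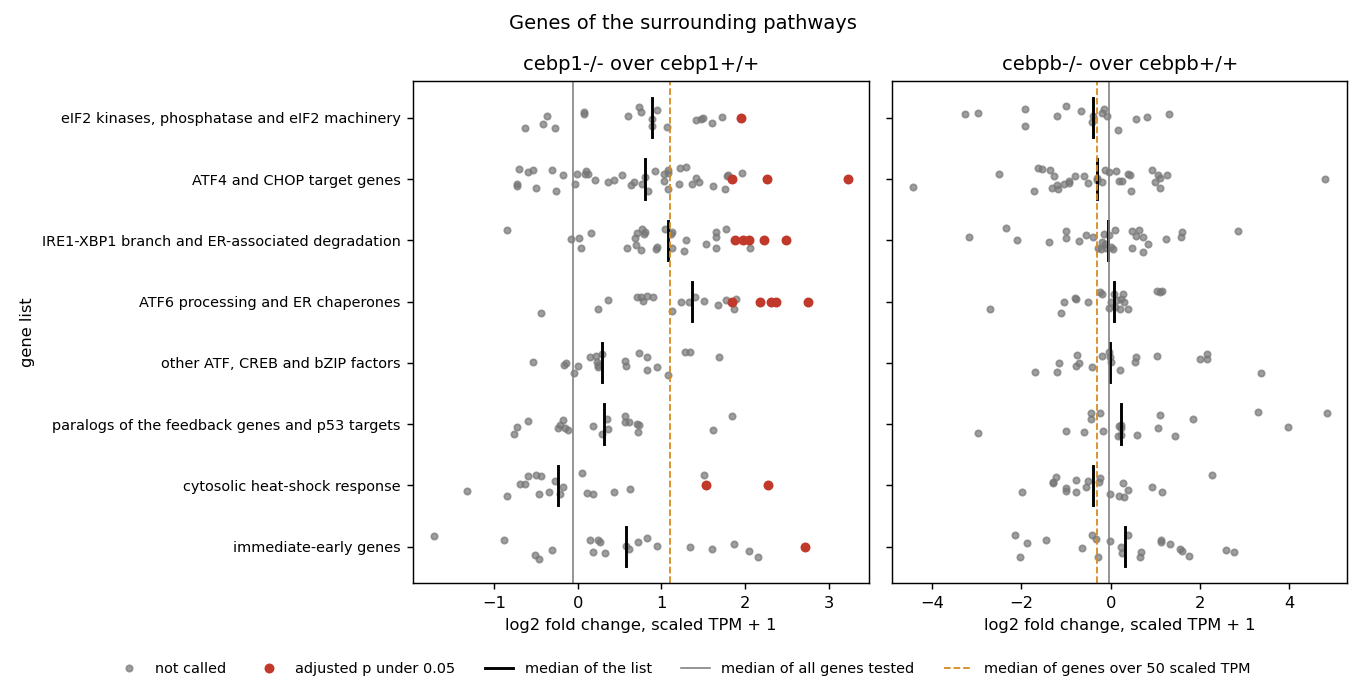
Log2 fold change of each tested gene of 8 pathway lists (x axis, scaled TPM + 1), mutant over its wild type; red points have a limma adjusted p under 0.05, black bars are list medians, the grey line is the median of all genes tested and the dashed line that of genes over 50 scaled TPM. In *cebp1*-/- the IRE1-XBP1 and ATF6 lists hold 5 called genes each, with medians of 1.08 and 1.37, and in *cebpb*-/- no gene is called.

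The patterns of the 9 genes over the 8 libraries were compared by the root-mean-square difference of their log2 scaled TPM, each centred on the mean of its table. *Xbp1* and *chac1* were the closest pair at 0.265, followed by *ddit3* and *trib3* at 0.354, and *atf6* and *sesn2* were farthest apart at 1.54. The genes share libraries and scaling, so these distances are a description. Among 2262 genes averaging 20 scaled TPM or more in both tables, those nearest to *xbp1* were *si:zfos-2330d3.8* (0.0871), *pgm1* (0.0912) and *il10rb* (0.0991). Nearest to *chac1* were *tmem258* (0.111), LOC100332723 (0.142) and *pfn1* (0.148). Nearest to *atf4a* were *anxa11a* (0.108), *gdi2* (0.193) and *aldh9a1a.1* (0.205), and nearest to *trib3* were *gpx4b* (0.166), *zgc:92066* (0.180) and *marcksl1a* (0.184). *Anxa11a* was at 147 and 125 TPM in *cebp1*-/-, against 107 and 76.1 TPM in *cebp1*+/+. It was at 526 and 494 TPM in *cebpb*-/-, against 176 and 171 TPM in *cebpb*+/+, higher in both mutants without overlap. *Anxa11a* was picked for its likeness to *atf4a* over these same libraries, so sharing its direction is no separate result.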

How the data were processed

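Sorted eGFP+ cells were profiled by a modified Smart-seq2 protocol in 8 libraries. The authors deposited TPM in 2 tables, 1 per mutation, made with STAR (alignment, build GRCz11) and featureCounts (reads per gene). The tables' columns name only genotype and replicate, and the experiment was taken from the table's name; 0 columns of sample values were left unused. Gene lengths behind the TPM are not given in the sources used here, TPM keep no depth, and DESeq2, which the authors ran on counts, was not used here; the scaling below is of the same kind. Within a table, TPM were scaled by the median of ratios taken over genes that were never 0 and averaged 1 TPM or more. Genes averaging 1 scaled TPM or more were tested with limma 3.58.1 (R 4.3.3) on log2(scaled TPM + 1) with a mean-variance trend and genotype as the only term; a fold change on this scale understates low genes. The difference of effects came from 4 groups in 1 fit, with a residual variance per gene shared by both tables. An exact permutation of 2 against 2 libraries cannot give a p under 0.33. Fits were tested on simulated data with changes in both directions. The simulation held no shift between abundant and low genes like that of the *cebp1* table, so it does not bear on that shift.

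The 9 genes and all lists were chosen with earlier results of these data known. Named genes were the 9, the 3 genes with the smallest p of each pathway list (and those called), the 3 nearest in pattern to those averaging 20 scaled TPM or more in both tables, and marker genes. Alternatives were TPM as deposited, scaling on genes of at least 50 TPM, TPM without mitochondrial genes, pseudocounts of 0.1 and 5, no filter, a filter of 5, no trend, each library left out and a replicate block. Plots used matplotlib 3.10.9 (Python 3.11.15).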

Additional observations from a re-analysis of the deposited data

Results flagged for a closer look

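*Xbp1* was noted because its response to the mutations differed by a test of the difference itself. On scaled TPM the log2 fold change was 2.102 for *cebp1*-/- over *cebp1*+/+ and -0.49 for *cebpb*-/- over *cebpb*+/+, a difference of 2.59 (limma adjusted p = 0.00997, 2 libraries in each of 4 groups). As deposited these were 1.03 and 0.07, a difference of 0.97 (limma adjusted p = 0.0375). Both p-values rest on a residual variance shared by 2 tables of unlike spread. Genes averaging over 50 scaled TPM had a median difference of 1.57.

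*Chac1* was noted for the same reason, with log2 fold changes of 2.05 and -1.15 and a difference of 3.20 (limma adjusted p = 0.0253). As deposited these were 0.996 and -0.60, with a difference of 1.59 (limma adjusted p = 0.0684). On TPM as deposited the genotypes did not overlap in either table. With 2 libraries a group, single stray libraries were not screened for.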

How the results depend on the processing

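Counts of calls moved strongly with the settings. For *cebp1*-/- against *cebp1*+/+ limma called 355 genes, against 45 as deposited, 40 with scaling on genes of at least 50 TPM, 43 without mitochondrial genes, 212 with a pseudocount of 0.1, 724 with a filter at a mean of 5 scaled TPM, 0 with no filter, 0 with no trend, and 0 to 0 when a library was left out. Of the 9 genes it called 1, which became 0 as deposited, with scaling on genes of at least 50 TPM, without mitochondrial genes, with no filter, with no trend and with any library left out (0 to 0), and 3 with a filter at a mean of 5 scaled TPM, which adds *chac1* and *atf4a*. Of calls as a whole 91.0% were higher, and 35.6% as deposited. For *cebpb*-/- against *cebpb*+/+, 0 genes became 10 with a pseudocount of 5 and 12 with a filter at a mean of 5 scaled TPM, and the 9 genes stayed at 0. For the difference between mutations, 581 genes became 898 with a filter at a mean of 5 scaled TPM, 325 with no trend, and 0 to 1095 with a library left out; 80.0% of the calls were positive, and 19.7% as deposited. The 2 members called became 1 (*xbp1*) as deposited, with scaling on genes of at least 50 TPM and without mitochondrial genes, 0 with no trend, and 0 to 3 with a library left out. The third was *atf6*, without *cebpb*-/- replicate 1. With a library left out, the lone library of its group is assumed to vary like the others. The cause of these moves was not tested. Of 387 alternative values for single genes, 0 were called in the opposite direction, 31 changed sign without a call, 24 lost a call and 4 gained one.

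The replicate block, with the replicate number as a term, gave 387 genes and 2 of the 9 (*xbp1* and *chac1*) for *cebp1*, 29 genes and 0 of the 9 for *cebpb*, and 0 genes and 0 of the 9 for the difference. Deviations of libraries with the same number correlated at 0.008 (*cebp1*) and -0.019 (*cebpb*), so no shared deviation was seen. Whether pools with the same number were collected together is not stated, and these correlations cannot tell. What limits these data is 2 libraries of about 500 cells a group, unknown depth, and a level of low-abundance genes that differed between the *cebp1* genotypes.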
